A study of Mus musculus with 16 samples.

Results

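The respiratory chain couples the oxidation of NADH and succinate to the synthesis of ATP across the inner mitochondrial membrane. Complexes I and II feed electrons to ubiquinone, complex III passes them to cytochrome c, complex IV reduces oxygen, and complex V (ATP synthase) uses the resulting proton gradient. Every complex except II holds subunits from both genomes, so the nucleus and the mitochondrial genome have to supply the same machine, and skeletal muscle is among the tissues richest in it. Several complex IV subunits come in pairs, with one isoform largely restricted to striated muscle and another found in most cell types.

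The genes described here are the 99 genes with subunit symbols of complexes I to V among 26382 genes in a mouse muscle expression table, chosen by gene symbol alone. They comprise 86 nuclear genes and 13 genes of the mitochondrial genome. By complex, there were 47 genes of complex I (40 nuclear and 7 mitochondrial), 4 of complex II (all nuclear), 9 of complex III (8 and 1), 20 of complex IV (17 and 3) and 19 of complex V (17 and 2). *Ndufa4* is counted by its symbol with complex I, although its protein is now regarded as a complex IV subunit. The annotation gives 93 of the 99 as protein-coding and 4 as processed pseudogenes (*Ndufa11b*, *Ndufb4c* and *Ndufs6b* of complex I and *Cox6c2* of complex IV), whose reads may come from the genes they were copied from, and 2 had no matched gene model.

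Bulk RNA was sequenced from muscle of female C57BL/6 mice aged 8 to 10 weeks, taken 14 days after intramuscular hamstring injection of 50 µL per side. HRS is histidyl-tRNA synthetase, the Jo-1 autoantigen, and its injection is the stimulus of HRS-induced myositis. Of the 16 libraries from 9 mice, 5 were left legs given recombinant HRS at 3 to 5 mg/mL (mice m862 to m866, here the HRS legs) and 5 were the right legs of the same mice given PBS (contralateral PBS legs). Another 4 were both legs of the PBS-only mice m867 and m868, and 2 were from mice m860 and m861 given HRS-MBP. The titles call it an MBP fusion protein at 2 to 3 mg/mL without spelling out MBP, and the treatment label of both mice reads HRS at 3 to 5 mg/mL. All mice shared strain, sex and sampling day. Leg side and treatment cannot be told apart in the HRS mice, because every HRS leg was a left leg, and the injection protocol describes injections on both sides while the titles assign treatment by leg. The HRS-MBP leg is not given, and the 4 PBS-only libraries came from 2 mice, so p-values against them are too small as statements about mice.

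The deposited values are normalized counts, whose totals ranged from 726797 to 1252360 per library. From the spacing of the low values, the libraries would hold about 8600000 to 73900000 counted reads, with the shallowest in the PBS-only group. In mouse m866, both legs stood apart from their groups. Its HRS leg had a summed leukocyte marker level (10 genes) of 1088 normalized counts against 2343 to 5353 in the other HRS legs, and a summed fibroblast marker level (5 genes) of 1894 against 10640 to 18400. Its muscle fibre markers (16 genes) summed to 136200 against 35080 to 82130. Its contralateral leg had an adipocyte marker sum (5 genes) of 1111 against 64.0 to 164 in the other contralateral legs, and the lowest muscle fibre sum of its group, 102300 against 145100 to 165600. Counts and medians for the HRS legs are therefore also given without mouse m866.

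In HRS legs, transcripts of the respiratory chain were lower as a group in both genomes. Of the 99 genes, 91 were lower in HRS legs than in contralateral PBS legs, 2 were higher (*Cox6a1* and *Cox8a*) and 6 did not pass the test (limma, Benjamini-Hochberg adjusted p under 0.05 over 16414 genes, all 99 included). Among all genes tested, 25.9% were lower and 35.1% higher. The median log2 fold change was −0.90 for the 99 genes and 0.08 for all genes. The 86 nuclear genes had a median of −0.86, with 79 lower and 2 higher, and the 13 mitochondrial genes a median of −1.28, with 12 lower and none higher. A fall by more than 1 on the log2 scale was called for 16 nuclear and 12 mitochondrial genes, 28 in all, against 6.27% of all genes. Without m866 it was called for 55 nuclear and all 13 mitochondrial genes, 68 in all, against 10.6% of all genes. Leaving out the 4 processed pseudogenes, 87 of 95 genes were lower and 2 higher. In bulk tissue, fewer cells of a type and less RNA per cell cannot be told apart.

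**Figure D1:**
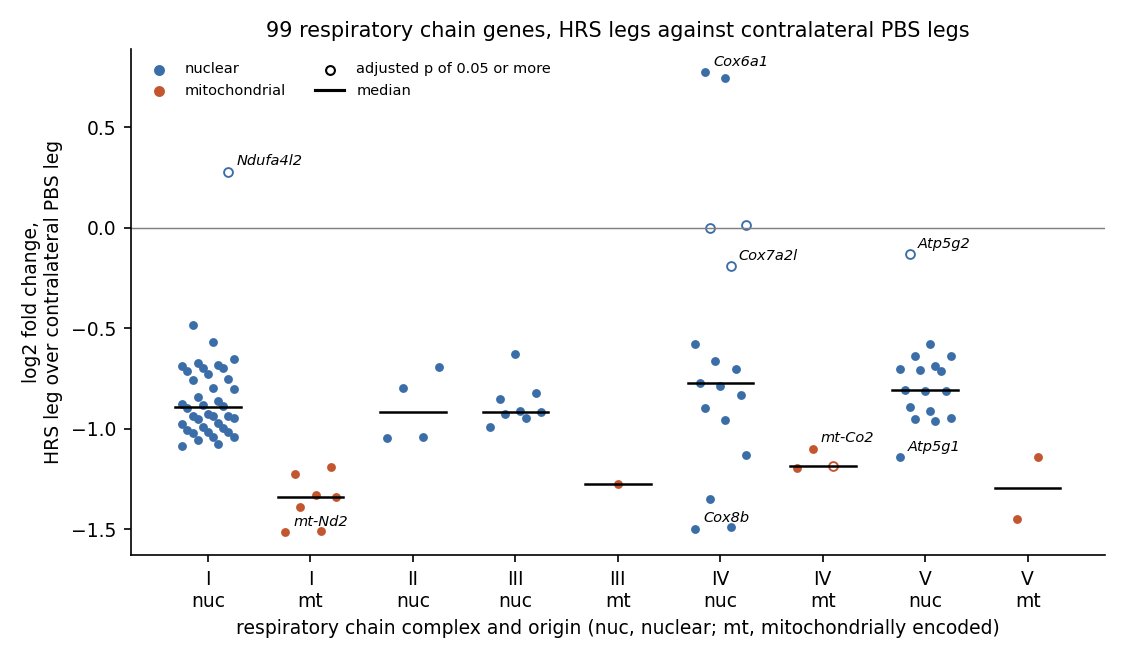
Log2 fold change of each of the 99 genes in HRS legs (n = 5) over contralateral PBS legs (n = 5), by complex and by nuclear or mitochondrial origin, with filled points for adjusted p under 0.05 and bars for medians. The mitochondrial genes lie between −1.52 and −1.10, while nuclear complex IV spreads from *Cox8b* at −1.50 to *Cox6a1* at 0.77.

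The direction was shared by mice m862 to m865 and not by m866. In those 4 mice, 94, 94, 95 and 95 of the 99 genes were lower in the HRS leg than in the other leg, with median log2 differences of −0.87, −1.004, −1.52 and −1.26. In m866, 8 of 99 were lower and 91 higher, with a median of 0.20. All 13 mitochondrial genes were lower in the HRS leg of each of the 4 mice and higher in the HRS leg of m866. Without m866, 93 genes were lower and 2 higher, against 31.3% and 38.9% of all genes, the median was −1.12 for nuclear and −1.68 for mitochondrial genes, and all 13 mitochondrial genes passed. The nuclear medians without m866 were −1.17, −1.21, −1.19, −1.01 and −1.07 for complexes I to V in order. With mouse as a fixed block, which sets each HRS leg against the other leg of its own animal, 74 genes were lower and 0 higher (background 16.2% and 27.8%), with 70 of 86 nuclear and 4 of 13 mitochondrial genes called. By complex, the nuclear calls under the block were 36 of 40, 4 of 4, 8 of 8, 10 of 17 and 12 of 17 for complexes I to V, and the mitochondrial calls 3 of 7, 0 of 1, 0 of 3 and 1 of 2 for complexes I, III, IV and V. With the block and without m866, the counts were 93 and 2 (background 32.1% and 39.3%).

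With m866 included, the groups were rarely separated. All 5 HRS legs lay below all 5 contralateral legs for 3 of the 99 genes, a share no larger than the background of 3.19%, and above them for 0 (background 18.3%). These 3, named after their values were seen, were the complex I accessory genes *Ndufv3* and *Ndufc2* and the processed pseudogene *Ndufa11b*, which stood at 0.57 to 2.1 normalized counts in every library and was separated by 1.212 against 1.217. The 4 HRS legs of m862 to m865 lay below all contralateral legs for 89 genes, 76 nuclear and 13 mitochondrial (background 24.5%), and above them for 0 (background 33.5%).

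Of total normalized counts, the 86 nuclear genes took 1.08% to 1.83% in HRS legs, 1.89% to 2.14% in contralateral PBS legs, 1.61% to 2.07% in PBS-only legs and 1.16% and 1.17% in the HRS-MBP libraries. The 13 mitochondrial genes took 3.24% to 10.6%, 9.29% to 10.7%, 10.8% to 12.5%, and 5.66% and 6.70% in the same order. The highest HRS leg on both measures was that of m866, and without it the HRS legs reached 1.58% and 5.99%. Poly(A) selection preceded sequencing, and mitochondrial mRNAs carry short tails, so these shares describe captured RNA.

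**Figure D2:**
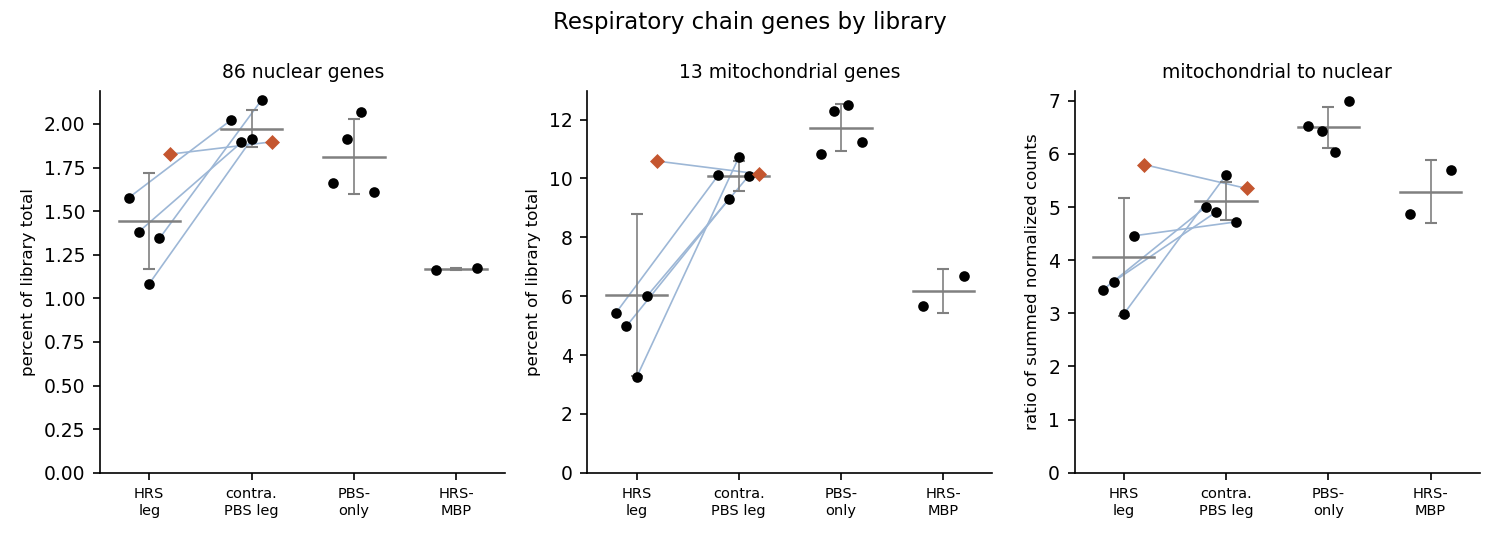
Share of each library's total normalized count held by the 86 nuclear genes (left) and the 13 mitochondrial genes (middle), in percent, and the ratio of the sums (right), with group means and SD bars, lines joining legs of one mouse and diamonds for m866. The HRS legs other than that of m866 hold 3.24% to 5.99% mitochondrial counts, below every PBS leg.

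Per kilobase of annotated exon, the 2 genomes stood far apart. In contralateral legs, the median level was 8825 normalized counts per kilobase for the 13 mitochondrial genes and 122 for the 84 nuclear genes with a matched gene model. *mt-Co1*, the catalytic core of complex IV, was highest at 21270, followed by *mt-Cytb* at 12930. The highest nuclear level on this measure was that of *Cox6a2* at 779, with *Atp5b* at 698. The length used was every annotated exon of a gene, merged over its transcripts. Nuclear genes with long or alternative exons therefore read lower than they would per kilobase of their main transcript. In HRS legs, the medians were 4352 for mitochondrial and 72.8 for nuclear genes.

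Complex I oxidises NADH and pumps protons. Of its 40 nuclear genes, 39 were lower, with a median of −0.89, or 36 of 37 without the 3 processed pseudogenes, and all 7 of the genes for its catalytic core were among them, from *Ndufs7* at −1.08 to *Ndufs8* at −0.80. *Ndufs7* (chr10:80249121-80256794), a core iron-sulfur subunit that passes electrons towards ubiquinone, is given as the lowest of the core, chosen after its values were seen. It read 121, 87.8, 58.5, 85.0 and 196 normalized counts in the HRS legs of m862 to m866. In the contralateral legs in the same order it read 239, 200, 202, 260 and 174, and in PBS-only legs 164 to 222. The HRS legs of m862 to m865 were below every PBS leg, and that of m866 was above its own other leg. The log2 fold change was −1.08 ± 0.24 (SE, limma, Benjamini-Hochberg adjusted p = 0.00171). The lowest nuclear value was that of *Ndufb4*, an accessory subunit of the membrane arm, at −1.09, whose reads may be shared with a near-identical copy. The highest was *Ndufa4l2*, an isoform of *Ndufa4* associated with hypoxia, at 0.28, which did not pass (limma, Benjamini-Hochberg adjusted p = 0.218).

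All 7 mitochondrial genes of complex I, which encode its proton-pumping membrane core, were lower, with a median of −1.34. *mt-Nd2* (mitochondrial genome, bases 3914 to 4951) read 3106, 2441, 1446, 3159 and 9407 in HRS legs and 10426, 8311, 9974, 9471 and 7618 in contralateral legs. The range in PBS-only legs was 10069 to 11860. Mice m862 to m865 had at most 3159 in the HRS leg, and m866 had more in the HRS leg than in the other. The fold change was −1.52 ± 0.41 (SE), the lowest of the 99 genes (limma, Benjamini-Hochberg adjusted p = 0.00515), and it did not pass with mouse as a block (limma, Benjamini-Hochberg adjusted p = 0.0807). *mt-Nd6*, on the other strand of the mitochondrial genome, was the least lowered of the 7 at −1.19, and whether reads were counted by strand is not given in the sources used here.

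Complex II, succinate dehydrogenase, is encoded by the nucleus alone and also serves the citric acid cycle. All 4 of its genes were lower. The catalytic subunits *Sdha*, the flavoprotein, and *Sdhb*, the iron-sulfur subunit, fell by 1.05 and 1.04, and the membrane anchors *Sdhc* and *Sdhd* fell by 0.80 and 0.70. *Sdha* (chr13:74322254-74350280) read 537, 426, 300, 424 and 991 in HRS legs against 1123, 1069, 939, 1170 and 827 in contralateral legs. Again the 4 HRS legs of m862 to m865 were below all PBS legs, which in PBS-only mice read 862.5 to 1033. All 4 genes kept their call with mouse as a block.

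Complex III passes electrons from ubiquinol to cytochrome c. All 8 nuclear genes matched by symbol, which leave out *Cyc1*, were lower, and all 8 kept their call with mouse as a block. They lay in a narrow band from *Uqcr10* at −0.99 to *Uqcrh*, the hinge protein, at −0.63. *Uqcrfs1*, the Rieske iron-sulfur protein, fell by 0.91 ± 0.23 (SE, limma, Benjamini-Hochberg adjusted p = 0.00351). With the mean adipocyte marker level as a covariate, an alternative added after the data were seen and called the adipocyte covariate here, it did not pass (limma, Benjamini-Hochberg adjusted p = 0.0624). Its mitochondrial partner *mt-Cytb*, which binds the quinone, read 6264, 5092, 2696, 6123 and 15787 in HRS legs and 16058, 14176, 15676, 15360 and 12679 in contralateral legs. The HRS legs of m862 to m865 lay far below the contralateral range, and that of m866 within it. The fold change of *mt-Cytb* was −1.28 (limma, Benjamini-Hochberg adjusted p = 0.0192), and without m866 it was −1.68. The adjusted p of *mt-Cytb* rose to 0.0501 without the HRS leg of m863, to 0.191 with mouse as a block and to 0.175 with the adipocyte covariate (limma, Benjamini-Hochberg).

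Complex V makes ATP in a soluble head driven by a membrane rotor. Of its 17 nuclear genes 16 were lower, with a median of −0.81. The 5 genes of the catalytic F1 head were all lower, from *Atp5b*, the catalytic beta subunit, at −0.96 to *Atp5d* at −0.71. *Atp5b* read 1664, 1299, 940, 1369 and 2792 in HRS legs and 3332, 3008, 2763, 3349 and 2333 in contralateral legs (limma, Benjamini-Hochberg adjusted p = 0.00425, but 0.076 with mouse as a block and 0.0593 with the adipocyte covariate). Of the 3 genes for the c ring, which encode the same mature protein, *Atp5g1* was lowest of the nuclear complex V genes at −1.14, and *Atp5g2* was at −0.13 and did not pass. *Atp5g2* stood at 1.6 to 2.0 normalized counts in HRS legs and 1.7 to 2.7 in contralateral legs, where little change can be seen. The mitochondrial genes *mt-Atp8* and *mt-Atp6*, which overlap on one transcript and encode membrane subunits, were at −1.45 and −1.14, and reads in the overlap may be assigned to either. *mt-Atp6* did not pass with mouse as a block or with the adipocyte covariate (limma, Benjamini-Hochberg adjusted p = 0.151 and 0.18).

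Complex IV, cytochrome c oxidase, held both genes that rose and the most lowered nuclear genes. Of its 17 nuclear genes 12 were lower and 2 higher, with a median of −0.77. Of its 3 mitochondrial genes *mt-Co3* at −1.19 and *mt-Co2* at −1.10 were lower, and *mt-Co1* at −1.18 did not pass (limma, Benjamini-Hochberg adjusted p = 0.0762). Neither *mt-Co3* nor *mt-Co2* passed with mouse as a block (limma, Benjamini-Hochberg adjusted p = 0.113 and 0.134) or with the adipocyte covariate (limma, Benjamini-Hochberg adjusted p = 0.12 and 0.116). *mt-Co1* read 13600, 12281, 7319, 13993 and 36256 in HRS legs and 35050, 32879, 34036, 34583 and 27743 in contralateral legs. The HRS leg of m866 was the highest of these 10 values, and without this mouse the fold change was −1.58 and passed (limma, Benjamini-Hochberg adjusted p = 0.0018).

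The muscle isoforms of complex IV, *Cox6a2*, *Cox7a1* and *Cox8b*, were all lower, with a median of −1.49. *Cox8b* (chr7:140898945-140900446) read 96.9, 69.6, 36.9, 59.6 and 159 in HRS legs and 247, 192, 213, 274 and 157 in contralateral legs. Its fold change was −1.50 ± 0.29 (SE, limma, Benjamini-Hochberg adjusted p = 0.000726), or 0.354 of the contralateral level. The HRS legs of m862 to m865 read at most 96.9, and every PBS leg read at least 155. *Cox6a2* (chr7:128205435-128206387) read 216, 155, 88.0, 167 and 446 in HRS legs and 616, 476, 530, 633 and 395 in contralateral legs. Its fold change was −1.49 ± 0.30 (SE, limma, Benjamini-Hochberg adjusted p = 0.000997). *Cox7a1* (chr7:30184144-30186078) was at −1.35 (limma, Benjamini-Hochberg adjusted p = 0.00155). Without m866 the 3 fold changes were −1.88, −1.91 and −1.73.

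The widely expressed counterparts went the other way or fell less. *Cox6a1* (chr5:115345642-115348981) read 41.8, 46.9, 60.3, 41.9 and 27.5 in HRS legs and 20.6, 18.2, 18.5, 21.8 and 58.7 in contralateral legs. *Cox8a* (chr19:7215153-7217616) read 46.8, 48.5, 59.6, 43.6 and 29.4 against 21.1, 19.0, 22.4, 21.4 and 64.6. In mice m862 to m865 every HRS leg was above every contralateral leg for both genes, and m866 was reversed, whose contralateral leg was the one with the adipocyte marker sum of 1111. The fold changes were 0.77 ± 0.28 and 0.75 ± 0.28 (SE, limma, Benjamini-Hochberg adjusted p = 0.0277 and 0.0282). They rose to 1.24 and 1.22 without m866. They did not pass with mouse as a block (limma, Benjamini-Hochberg adjusted p = 0.13 and 0.136), under quantile normalization for both, or under median-of-ratios scaling for *Cox6a1*. With single legs left out, the call of *Cox6a1* was lost without the HRS leg of m863 or m864 or the contralateral leg of m862, m863, m864 or m865, and that of *Cox8a* without any of these or the HRS leg of m862 (limma, Benjamini-Hochberg adjusted p up to 0.0743). With the adipocyte covariate they were 1.08 and 1.04 and passed. *Cox7a2*, the counterpart of *Cox7a1*, was lower, at −0.58 (limma, Benjamini-Hochberg adjusted p = 0.00853, and 0.0886 with the adipocyte covariate). *Cox4i1*, the common isoform of subunit 4, was at −0.70 (limma, Benjamini-Hochberg adjusted p = 0.00532, but 0.0501 with mouse as a block and 0.0719 with the adipocyte covariate), and *Cox4i2*, a low-level isoform at 0.9 to 2.3 normalized counts in the legs of these mice, did not pass. The leukocyte markers were higher in HRS legs for 10 of 10 genes and the fibroblast markers for 5 of 5, and the part of those cells in the isoform values was not tested.

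The 250 bases before the RefSeq start of 4 of these genes (GRCm38.p6, from 5′ to 3′ on the gene's strand) are shown because they head the isoform pairs that parted, with matches to the motifs searched in capitals. The motifs, searched on both strands, were the NRF1 core GCATGCGC, the ETS core CCGGAAG, the ERR site AAGGTCA, the E-box CAGCTG and the TATA letters TATAAA. *Cox6a1* and *Cox8a* rose, and *Cox8b* and *Cox7a1* fell.

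Cox6a1: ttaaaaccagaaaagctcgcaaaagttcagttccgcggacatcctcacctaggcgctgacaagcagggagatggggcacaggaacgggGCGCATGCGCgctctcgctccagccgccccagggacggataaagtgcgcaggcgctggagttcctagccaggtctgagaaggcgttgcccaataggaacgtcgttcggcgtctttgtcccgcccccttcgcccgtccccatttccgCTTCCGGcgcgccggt
Cox8a: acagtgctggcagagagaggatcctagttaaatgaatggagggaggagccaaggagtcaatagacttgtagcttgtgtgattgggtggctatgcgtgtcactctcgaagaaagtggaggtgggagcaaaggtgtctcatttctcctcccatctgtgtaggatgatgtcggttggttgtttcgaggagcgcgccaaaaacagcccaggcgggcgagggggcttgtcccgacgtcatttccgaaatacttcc
Cox8b: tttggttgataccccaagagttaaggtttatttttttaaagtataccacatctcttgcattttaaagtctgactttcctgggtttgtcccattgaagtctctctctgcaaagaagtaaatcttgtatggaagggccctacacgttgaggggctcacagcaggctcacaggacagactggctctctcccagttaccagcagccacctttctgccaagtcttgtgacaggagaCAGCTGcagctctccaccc
Cox7a1: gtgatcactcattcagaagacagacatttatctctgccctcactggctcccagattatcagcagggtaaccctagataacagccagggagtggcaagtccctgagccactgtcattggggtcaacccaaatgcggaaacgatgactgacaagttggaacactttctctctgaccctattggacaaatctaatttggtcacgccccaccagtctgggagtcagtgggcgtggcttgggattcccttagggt

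These windows lie at chr5:115348959-115349208 on the minus strand, chr19:7217617-7217866 on the minus strand, chr7:140900447-140900696 on the minus strand and chr7:30183921-30184170 on the plus strand. The *Cox6a1* window held overlapping matches of the NRF1 core on both strands starting 162 and 160 bases before the start and an ETS core 16 bases before it. The *Cox8b* window held an E-box 19 bases before the start, and the other 2 windows held none of these letters. Shares were counted over genes, with a match in any promoter window of the gene. Among the 67 of 86 nuclear genes with a promoter entry, the NRF1 core was in 11.9% against 2.56% of all 27025 genes with windows of the same length, and the ETS core in 17.9% against 7.83%. The ERR site was in 7.46% against 4.70%, the E-box in 8.96% against 14.7% and the TATA letters in 8.96% against 14.3%. A match is a description of the letters and not of binding.

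Ratios within a library compare genes of one complex free of the scaling between libraries. The log2 ratio of each pair was compared between HRS and contralateral legs by a two-sided exact permutation test over legs, adjusted by Benjamini-Hochberg over 10 pairs of which 9 are given here, where 5 against 5 legs can give p = 0.00794 at the least. This test takes the legs as independent, although they came in pairs from 5 mice. The gene pairs were chosen with earlier results of these data known. An exact sign-flip permutation test over the 5 mice can give p = 0.0625 at the least, so no ratio could pass on that test, and its values were 0.0625 for *Cox7a1* to *Cox7a2* and *Cox4i1* to *Cox4i2* and up to 0.375 for the others (exact, two-sided, unadjusted). The *Cox8b* to *Cox8a* log2 ratio was 1.04, 0.52, −0.69, 0.45 and 2.42 in HRS legs and 3.52, 3.31, 3.22, 3.64 and 1.27 in contralateral legs. The difference was −2.24 (exact permutation, adjusted p = 0.0397), with a lower ratio in the HRS leg of 4 of 5 mice. *Cox6a2* to *Cox6a1* differed by −2.26 (exact permutation, adjusted p = 0.0397, 4 of 5 mice). Without m866 these 2 differences were −3.09 and −3.15. *Cox7a1* to *Cox7a2* differed by −0.78 with no overlap between the 5 HRS legs and the 5 contralateral legs (exact permutation, adjusted p = 0.0397), and was lower in the HRS leg of 5 of 5 mice, m866 included.

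Outside complex IV subunits 6 to 8, *Ndufa4* to *Ndufa4l2* differed by −1.30 (exact permutation, adjusted p = 0.0397, 4 of 5 mice) and *Atp5g1* to *Atp5g2* by −1.01 (exact permutation, adjusted p = 0.0476, 4 of 5 mice). *Cox4i1* to *Cox4i2* differed by −0.70, lower in 5 of 5 mice, and did not pass (exact permutation, adjusted p = 0.068). Each of the 5 ratios that passed over legs also passed without either leg of m866, and none passed when any single leg of m862 to m865 was left out (exact permutation, adjusted p up to 0.0794).

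**Figure D3:**
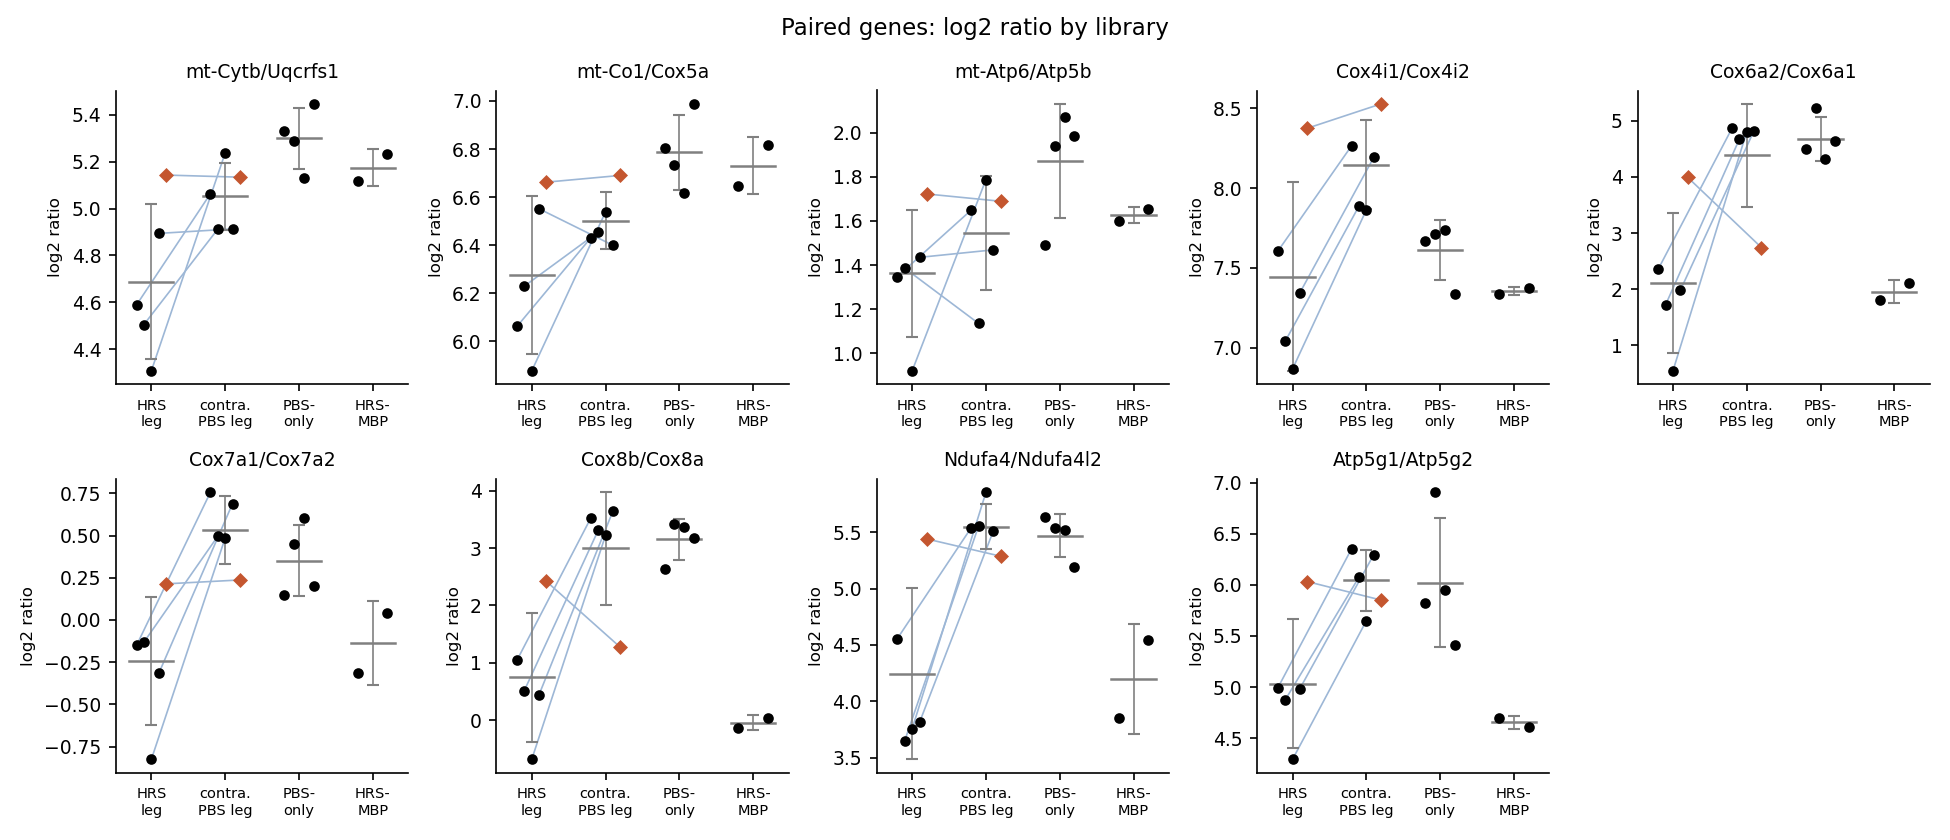
Log2 ratio of each of 9 gene pairs in every library, with group means and SD bars, lines joining the legs of one mouse and diamonds for m866. For *Cox8b* to *Cox8a* the HRS-MBP libraries lie at −0.14 and 0.04 and the PBS-only legs between 2.63 and 3.42.

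The mean log2 ratio of a mitochondrial gene to its nuclear partner in the same complex was lower in HRS legs for the 3 pairs given, but none passed over all legs. The differences in log2 ratio were −0.36 for *mt-Cytb* to *Uqcrfs1* (exact permutation, adjusted p = 0.0794), −0.23 for *mt-Co1* to *Cox5a* (exact permutation, adjusted p = 0.22) and −0.18 for *mt-Atp6* to *Atp5b* (exact permutation, adjusted p = 0.294). Without m866, or without its HRS leg alone, *mt-Cytb* to *Uqcrfs1* passed, at −0.46 without both legs (exact permutation, adjusted p = 0.0357), while the other 2 did not. The HRS leg of m864 was lowest in these 3 ratios.

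The muscle fibre markers themselves were lower in HRS legs, 13 of 16 with a median of −1.11 (16 of 16 and −1.49 without m866). Only 2 of 16 passed with mouse as a block, where 16.2% of all genes were lower. With the adipocyte covariate 2 of 16 passed, where 12.9% of all genes were lower. The largest called change was in *Tcap*, a titin-binding Z-disc protein, at −1.75. When libraries were scaled to these 16 markers instead, 7 of the 99 genes were lower and 23 higher, with a member median of 0.15 beside a median over all genes of 1.04 (77.5% of all genes higher, 1.71% lower). Under that scaling the nuclear genes had a median of 0.19, with 2 lower and 23 higher, and the mitochondrial genes a median of −0.21, with 5 lower and 0 higher. *Cox8b* and *Cox6a2* were the 2 nuclear genes that stayed lower, at −0.43 for both. Relative to the muscle fibre markers, then, the negative values of most nuclear genes turned positive, including *Sdha* at 0.02 and *Atp5b* at 0.11, neither of which passed. How far the fall in these transcripts goes with the share of muscle fibre RNA in the tissue was not tested.

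The mean log2 level of the 13 mitochondrial genes minus that of the fibre markers was −0.12 ± 0.27 (SD, n = 5) in HRS legs, 0.11 ± 0.16 (SD, n = 5) in contralateral legs, 0.39 ± 0.05 (SD, n = 4) in PBS-only legs and 0.13 ± 0.12 (SD, n = 2) in HRS-MBP libraries. For the 86 nuclear genes the same difference was −4.88 ± 0.24, −5.16 ± 0.15, −5.24 ± 0.16 and −5.002 ± 0.05 in that order. HRS and contralateral legs overlapped on both measures when m866 was included. Without its 2 legs, the nuclear difference was −4.97 to −4.52 in HRS legs and −5.26 to −5.18 in contralateral legs, with no overlap, and the mitochondrial difference was −0.41 to 0.03 and −0.04 to 0.12, which still overlapped.

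**Figure D4:**
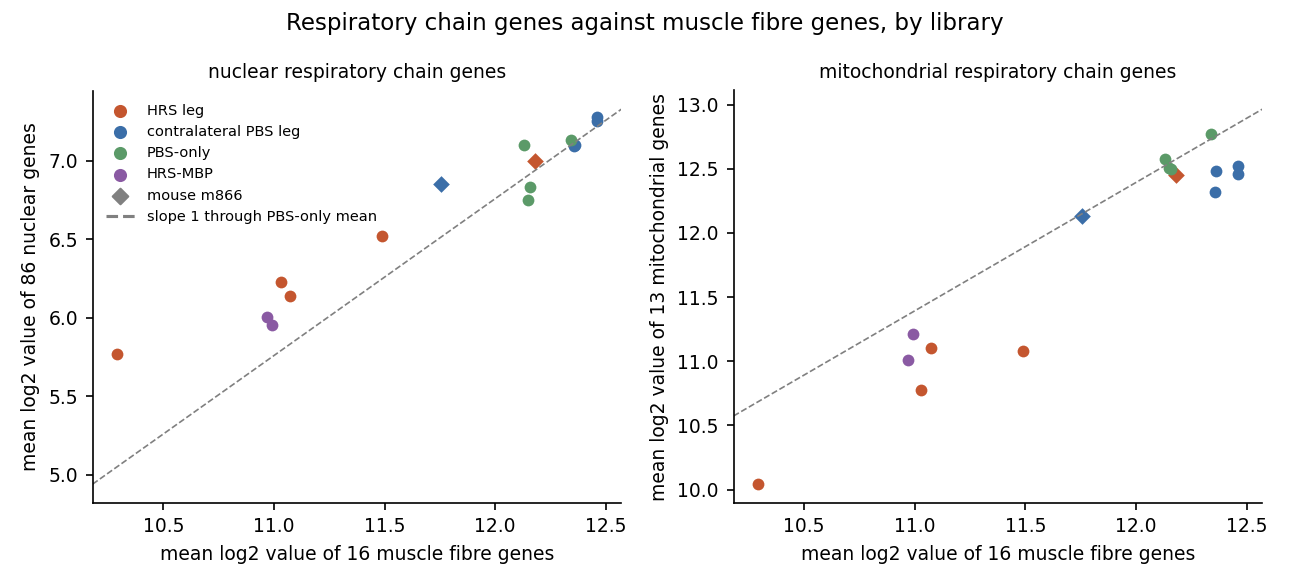
Mean log2 value of the 86 nuclear (left) and 13 mitochondrial genes (right) against that of 16 muscle fibre genes, 1 point per library, diamonds for m866, with a dashed line of slope 1 through the PBS-only mean. All 5 HRS legs lie above the line for nuclear genes. For mitochondrial genes all 5 HRS legs, all 5 contralateral legs and both HRS-MBP libraries lie below it.

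Of the genes around the chain, the assembly factors and electron carriers, such as cytochrome c (*Cycs*), were lower for 40 of 48 with 0 higher and a median of −0.57. The largest change was in *Ndufaf5*, a complex I assembly factor, at −1.14. Regulators of nuclear and mitochondrial gene expression were mixed, with 14 of 30 lower and 4 higher. *Esrrb*, an estrogen-related receptor, had the largest change at −1.57. *Ppargc1a*, the PGC-1α coactivator of mitochondrial biogenesis, was at −1.12 and *Tfam*, which packages and transcribes mitochondrial DNA, at −0.52, both lower and both named after their values were seen. Carriers and markers of mitochondrial mass were lower for 16 of 21 and higher for 2, *Ucp2*, an inner membrane carrier abundant in leukocytes, at 2.72 and *Slc25a5*, the widely expressed ADP/ATP carrier, at 1.26. The muscle ADP/ATP carrier *Slc25a4* was at −1.23. With mouse as a block the lower and higher counts were 29 and 0 for the assembly list, 8 and 4 for the regulators and 13 and 2 for the mitochondrial mass list (background 16.2% and 27.8%). Without m866 they were 42 and 0, 17 and 4, and 18 and 2 in that order (background 31.3% and 38.9%). Under fibre-marker scaling they were 0 and 23, 1 and 19, and 0 and 10 in that order, each share of higher genes being under the 77.5% of all genes that this scaling made higher.

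Genes of slow or oxidative fibres were lower for 6 of 7 (*Myl2*, a slow myosin light chain, at −2.90) and genes of fast glycolytic fibres for 5 of 7 (*Actn3* at −1.43), 4 of the latter list being fibre markers too. Without m866 these counts were 6 of 7 and 7 of 7, and with mouse as a block 3 of 7 and 0 of 7. Adipocyte markers were lower for 4 of 4 tested (*Lep* at −2.43), red blood cell markers for 3 of 4 (*Hba-a1* at −0.69) and satellite cell markers for 0 of 2. Of the 4 endothelial markers 1 was higher (*Pecam1* at 0.35) and 1 lower. With the adipocyte covariate, 61 members were lower and 2 higher (background 12.9% and 24.7%), with a median of −0.71. Of the 13 mitochondrial genes 2 passed, with a median of −0.92.

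Against the PBS-only mice, which received no HRS in either leg, HRS legs showed 83 lower and 2 higher genes, against 22.6% and 38.1% of all genes. A fall by more than 1 was called for 17 (background 5.87%). Nuclear genes had a median of −0.69 with 71 of 86 lower, and mitochondrial genes a median of −1.45 with 12 of 13 lower, led by *mt-Nd4l* at −1.84. *Cox6a1* and *Cox8a* were again the 2 that were higher, at 1.17 and 1.11 (limma, Benjamini-Hochberg adjusted p = 0.00411 and 0.00485). With both legs of each PBS-only mouse averaged to 1 value, 52 were lower and 2 higher (background 14.4% and 31.9%), and with fibre-marker scaling 13 were lower and 31 higher (background 2.17% and 73.5%). Without m866, 91 were lower and 2 higher (background 28.4% and 41.5%), with medians of −0.87 for nuclear and −1.79 for mitochondrial genes, and a fall by more than 1 was called for 41 (background 9.33%). In this comparison the leukocyte markers were higher for 10 of 10 genes and the fibroblast markers for 5 of 5, and the muscle fibre markers lower for 9 of 16. It shares the HRS legs with the comparison above.

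The contralateral PBS legs did not differ from PBS-only legs in a called gene of the chain, with 0 lower and 0 higher (limma, background 0.00609% lower and 0% higher). An unadjusted limma p under 0.05 was reached by 1 of the 99, beside 902 of the 16414 genes tested. The direction nevertheless split by genome. Of 86 nuclear genes 84 had a higher mean in contralateral legs, with a median of 0.14, and 13 of 13 mitochondrial genes a lower mean, with a median of −0.22, beside a median over all genes of 0.07. The ratio of summed mitochondrial to summed nuclear counts was 4.72 to 5.61 in the 5 contralateral legs and 6.03 to 6.99 in the 4 PBS-only legs, with no overlap. This ratio was noticed in the data and was not tested, and the PBS-only legs came from 2 mice.

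**Figure D5:**
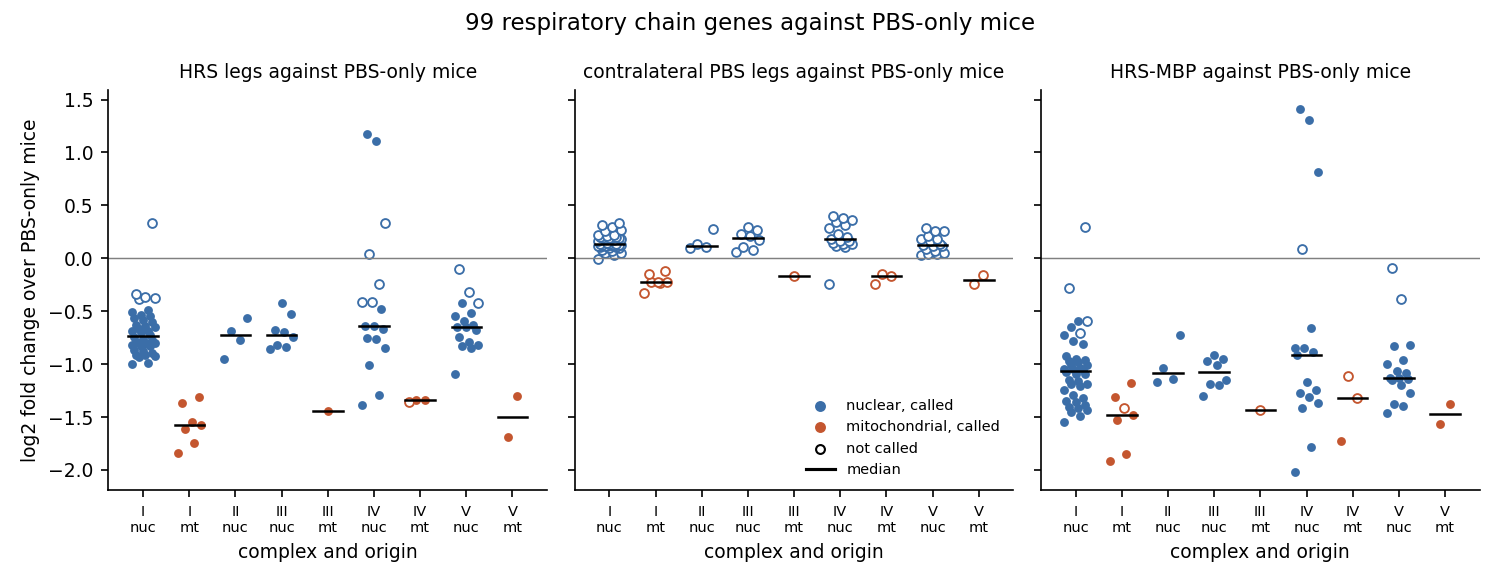
Log2 fold change of each of the 99 genes over PBS-only mice (n = 4 legs) in HRS legs (n = 5), contralateral PBS legs (n = 5) and HRS-MBP (n = 2), by complex and origin, with filled points for adjusted p under 0.05 and bars for medians. In the middle panel no gene is filled, and nuclear medians lie above 0 while mitochondrial medians lie below it.

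HRS-MBP libraries also had lower respiratory chain levels than PBS-only legs. Of the 99 genes 85 were lower and 3 higher, against 23.8% and 33.2% of all genes, and 62 were lower by more than 1 (background 10.2%). The median was −1.08 for nuclear genes, 76 of them lower, and −1.43 for mitochondrial genes, 9 of 13 lower. Cell type markers moved in the same comparison. The leukocyte markers were higher for 10 of 10 genes, summing to 4180 and 4511 normalized counts against 85.1 to 194.5 in PBS-only legs, and the fibroblast markers for 4 of 5, summing to 4202 and 9544 against 848.1 to 1618. The muscle fibre markers were lower for 8 of 16, summing to 54600 and 55000 against 123800 to 144100. Their part in the respiratory chain values was not tested. *Cox8a* read 57.4 and 52.9 against 16.9 to 24.7 in PBS-only legs, and *Cox6a1* read 48.4 and 44.9 against 14.2 to 25.2, with fold changes of 1.41 and 1.31 (limma, Benjamini-Hochberg adjusted p = 0.0057 and 0.0103). *Cox8b* read 52.1 and 54.5 against 155 to 225, a fold change of −1.78 (limma, Benjamini-Hochberg adjusted p = 0.00184). Both HRS-MBP libraries lay outside the PBS-only range for these 3 genes. The lowest value was that of *Cox6c2* at −2.02, annotated as a processed pseudogene that may share reads with *Cox6c*, and the third higher gene, *Cox6b2*, at 0.82, read at most 0.97 normalized counts in every library.

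Both HRS-MBP libraries lay below all PBS-only legs for 92 of the 99 genes, 79 nuclear and 13 mitochondrial (background 30.6%), and above them for 3 (background 39.8%). With fibre-marker scaling, 5 genes were lower and 10 higher (background 1.82% and 66.1%). Compared directly, HRS-MBP libraries and HRS legs differed in 0 of 99 genes (limma, background 0.134% lower and 0.426% higher). An unadjusted limma p under 0.05 was reached by 20 of the 99, beside 2371 of the 16414 genes tested. The median difference was −0.36 for nuclear and 0.07 for mitochondrial genes, with 2 HRS-MBP libraries and standard errors of 0.12 to 0.74 on the log2 scale. Without the HRS leg of m864, 6 genes were lower in HRS-MBP and 0 higher (background 1.89% and 4.81%). Without m866 the count was 0 of 99 (limma, background 1.24% lower and 0.938% higher), with medians of −0.18 for nuclear and 0.41 for mitochondrial genes.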

How the data were processed

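Libraries of poly(A)-selected RNA were read from 1 deposited table of 16 libraries and 26382 genes. The authors deposited normalized counts (a non-negative signal per gene, scaled between libraries), and the submitters' processing notes name STAR 2.7.8a and limma and the build GRCm39. The table's coordinates instead matched GENCODE M21 on GRCm38 for 99.0% of genes matched by symbol, and that build is used here. Low values were whole multiples of 1 read for 69.7% to 73.6% of values (tolerance 0.02), so whole reads were not recovered and no count test was run.

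Groups were taken from the sample labels. Values were transformed as log2(value + 0.5), so fold changes of low genes are understated, and genes with a mean under 0.5 were left out. The remaining 16414 genes were tested with limma 3.58.1 (trend and empirical Bayes moderation) in R 4.3.3 over all 4 groups, with Benjamini-Hochberg adjustment and a threshold of 0.05. The script was tested on simulated data. Errors are SD over libraries or SE of the fit. Nothing in the labels says that HRS and PBS legs of the same mouse are independent, and p-values measure the spread between these libraries. The 5 HRS mice gave both legs, so mouse numbers pair the legs by animal, and the correlations of the paired deviations over all tested genes were 0.12, 0.16, 0.10, −0.03 and −0.37 for m862 to m866.

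Genes named are both genes of each of the 10 pairs (1 gene and its pair are not reported here), the lowest and highest gene of each complex by genome, called genes of opposite direction, all of complex II, and the most changed called gene of each other list. *Ndufs7*, *Ndufs8* and *Atp5d*, as extremes of the complex I core and the F1 head, were named after their values were seen. The members were taken by gene symbol alone, and the members, pairs and lists were chosen with earlier results of these data known. Alternatives were other pseudocounts (0.125 and 2), no filter or a mean of 5, quantile, median-of-ratios, mitochondria-free and fibre-marker scaling, no trend, robust variance, mouse as a random or fixed block, averaged PBS-only legs, 2-group fits and leaving out each library. Those without m866, without processed pseudogenes and with the adipocyte covariate were added after seeing the data. Promoters came from RefSeq (GRCm38.p6).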

Additional observations from a re-analysis of the deposited data

Results flagged for a closer look

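Within each group of 4 or 5 libraries, 126 sets of values (31 genes, 9 ratios and the mean levels of the nuclear and of the mitochondrial genes, in 3 groups) were examined for a single library lying far from the rest of its group, and 10 were marked. Chance marks about 1 in 20 such sets. Of the 10, 8 were the contralateral PBS leg of m866, the leg with the high adipocyte marker sum.

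In that leg, the log2 value of *Cox6a1* was 5.89 against 4.23 to 4.48 in the other contralateral legs, and that of *Cox8a* 6.03 against 4.28 to 4.51. Its log2 ratio of *Cox6a2* to *Cox6a1* was 2.74 against 4.67 to 4.87, and that of *Cox8b* to *Cox8a* 1.27 against 3.22 to 3.64. It was low in *Cox5a* (log2 8.07 against 8.52 to 8.68), *Cox4i2* (0.53 against 1.22 to 1.37), *mt-Co1* (14.76 against 15.00 to 15.10) and *mt-Co2* (12.49 against 12.84 to 12.96).

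The other two were 1 PBS-only leg. The left leg of m867 had *mt-Cytb* at log2 14.18 against 13.95 to 13.98 and *Sdhd* at 7.98 against 7.67 to 7.71.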

How the results depend on the processing

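The count of members called in HRS against contralateral legs moved from 93 to 30 with fibre-marker scaling (7 lower, 23 higher) and to 54 (9 lower, 45 higher, beside 84.6% of all genes higher) when m866 was also left out, and stayed between 63 and 95 under the other alternatives, 74 of them under the replicate block. The median of all genes (log2) shifted from 0.08 to 1.04 and 1.38 under these scalings, to 0.39 under scaling without mitochondrial genes, to −0.16 under quantile normalization and to 0.01 under median-of-ratios scaling. Scaling to fibre markers lowers the values of libraries rich in fibre RNA by construction. With that scaling, without and then with m866 left out, the reversed log2 fold changes were *Cox4i1* 0.37 and 0.53, *Ndufa4* 0.042 and 0.12, *Uqcrfs1* 0.15 and 0.22, *Cox5a* 0.11 and 0.14, *Atp5b* 0.11 and 0.18, *Cox4i2* 0.87 and 1.08, *Cox7a2* 0.48 and 0.67, *Atp5g2* 0.72 and 0.94, *Sdha* 0.020 and 0.066, *Sdhb* 0.025 and 0.054, *Sdhc* 0.27 and 0.39, *Sdhd* 0.37 and 0.50, *Uqcr10* 0.074 and 0.18, and *Uqcrh* 0.44 and 0.61.

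Uncalled genes changed sign elsewhere: *Cox4i2* to 0.0061 with the smaller pseudocount and to 0.29 with scaling without mitochondrial genes, *Atp5g2* to 0.15 with the latter, and *Ndufa4l2* to −0.11 with quantile normalization. Leaving out single libraries gave *Cox4i2* values from −0.16 to 0.082. Calls of mitochondrial genes were often lost: 4 of 13 passed with mouse as a block and 2 of 13 with the adipocyte covariate. Of 18 alternatives, 7 ended the call of *mt-Atp6*, 6 that of *mt-Cytb*, 6 that of *mt-Co2* and 5 that of *mt-Co3*. With the adipocyte covariate *mt-Nd2* and *mt-Nd6* did not pass either (limma, Benjamini-Hochberg adjusted p = 0.0772 and 0.0508).

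Against PBS-only mice the count of called members moved from 85 to 44 with fibre-marker scaling and to 54 with averaged legs. For HRS-MBP it moved from 88 to 15 with fibre-marker scaling. The cause was not tested. Leaving out single libraries gave 90 to 95 called members in HRS against contralateral legs, 70 to 93 in HRS against PBS-only legs, 59 to 87 in HRS-MBP against PBS-only legs and 0 to 6 in HRS-MBP against HRS legs.

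Without both legs of m866, the log2 ratio differences of *mt-Cytb* to *Uqcrfs1* (−0.46) and *Cox4i1* to *Cox4i2* (−0.84) passed, the last also with a pseudocount of 2 (−0.69, exact permutation adjusted p = 0.0397). Leaving out single legs gave −1.26 to −0.82 for *Atp5g1* to *Atp5g2*, −0.93 to −0.56 for *Cox4i1* to *Cox4i2*, −2.73 to −1.87 for *Cox6a2* to *Cox6a1*, −0.89 to −0.63 for *Cox7a1* to *Cox7a2*, −2.68 to −1.89 for *Cox8b* to *Cox8a*, −0.48 to −0.27 for *mt-Cytb* to *Uqcrfs1* and −1.60 to −1.16 for *Ndufa4* to *Ndufa4l2*.

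Depth limits *Atp5g2*, *Cox4i2*, *Cox6b2* and *Ndufa11b*, which stood at 0.12 to 2.7 normalized counts, most in the PBS-only leg of about 8600000 implied reads.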
